A study of Mus musculus with 6 samples.

Results

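The genes described here encode the machinery that carries new proteins into the membrane and lumen of the endoplasmic reticulum (ER) in mouse splenic plasma cells. They were chosen by symbol from the complexes they belong to: the signal recognition particle (SRP) and its receptor, the Sec61 channel and its partners, the translocon-associated protein (TRAP) complex, the signal peptidase and the ER membrane protein complex (EMC). All 38 named symbols were listed in the files, and 37 reached 1 FPKM (fragments counted per transcript length and per depth of the library) in 3 or more of the 6 libraries and were tested, as were 9087 of all 24346 symbols. The exception was Srp54b, at or below 0.0187 in every library.

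The cells were congenically marked B1-8germ B cells, which carry a prearranged heavy-chain variable region that recognises the hapten NP. Wild-type C57BL/6J mice received these cells and were immunised with NP-CGG/alum on day 0, and on day 7 donor plasma cells were sorted from spleen. The 3 libraries of one group came from cells sorted as IgM plasma cells and the 3 of the other from cells sorted as IgG1 plasma cells, so donor genotype, host, immunisation and day were shared and isotype was the only labelled difference. All donor cells share the same variable region, so the comparison describes a narrow set of B cells, and the labels do not say whether libraries came from separate or pooled animals. The p-values then reflect only library-to-library spread, which could be technical.

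A plasma cell makes antibody chains at a very high rate, and each chain starts with a signal peptide. SRP binds that peptide as it leaves the ribosome and docks the ribosome at the SRP receptor, the Sec61 channel takes the chain across the membrane, and the signal peptidase removes the peptide while TRAP and TRAM proteins assist. The EMC inserts certain membrane segments and tail-anchored proteins, by a route that does not need the lateral opening of Sec61.

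The libraries were those of plasma cells by their markers: 8 of 8 listed plasma cell markers passed the filter, and their summed level was 4.41e+04 to 5e+04 FPKM in IgM and 3.67e+04 to 3.92e+04 in IgG1 libraries, led by Jchain. Among 8 B cell markers Pax5 was listed at 0 throughout, and summed levels were 133 to 165 in IgM and 106 to 140 in IgG1. T cell, erythroid and NK lists summed to 9.18 or less in every library, with Ncr1, Klrb1c, Klre1 and Gzma at 0. The myeloid list summed to 5.97 to 10.7 in IgM and 0.381 to 6.13 in IgG1, with S100a8 and S100a9 at 0, and its part in the results below was not tested. Isotypes are those of the labels, since Ighm and Ighg1 were not analysed here. Of the genes tested, 27 to 60 were listed at 0 in IgM libraries and 74 to 288 in IgG1 libraries. Deviations from the gene means followed transcript length in opposite directions, with Spearman rho of 0.15 to 0.30 in IgM and -0.24 to -0.15 in IgG1 libraries, and the part of this trend in the differences is not known beyond the corrected values given below.

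Promoters are shown for the members called different between the isotypes with FPKM as deposited and held in the RefSeq table of GRCm38.p6. Each runs 5′ to 3′ and ends at the base before the start site, or before the first base that the basic set of GENCODE vM21 places in an exon of that gene. Capitals mark CCACG on either strand. Sec61b (chr4:47474511-47474657, plus strand), Sec61g (chr11:16508485-16508634, minus strand) and Emc4 (chr2:112368028-112368177, minus strand) were called higher in IgG1 cells. Srpr (chr9:35211053-35211154, plus strand) and Ssr3 (chr3:65392624-65392703, minus strand) were called lower. These calls depended on the scaling and on single libraries, as given below.
Sec61b: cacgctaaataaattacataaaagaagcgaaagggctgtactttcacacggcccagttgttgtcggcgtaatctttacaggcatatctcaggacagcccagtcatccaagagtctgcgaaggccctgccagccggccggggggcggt
Sec61g: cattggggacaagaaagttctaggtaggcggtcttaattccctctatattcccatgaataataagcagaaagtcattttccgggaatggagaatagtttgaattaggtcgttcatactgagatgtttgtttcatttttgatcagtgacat
Emc4: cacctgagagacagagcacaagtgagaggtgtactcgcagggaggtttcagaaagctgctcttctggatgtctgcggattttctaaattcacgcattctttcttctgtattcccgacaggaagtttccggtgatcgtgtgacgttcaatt
Srpr: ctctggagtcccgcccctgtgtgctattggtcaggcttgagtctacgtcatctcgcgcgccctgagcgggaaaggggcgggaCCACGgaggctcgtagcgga
Ssr3: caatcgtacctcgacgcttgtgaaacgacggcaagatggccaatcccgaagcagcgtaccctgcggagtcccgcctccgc

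In these windows of 147, 150, 150, 102 and 80 bases G and C made up 53.7%, 37.3% and 47.3% of the bases of Sec61b, Sec61g and Emc4, and 65.7% and 62.5% of those of Srpr and Ssr3. The median for the last 150 bases before the start over all tested genes was 62.7%. The windows were chosen by the calls and differ in length, and their GC content was not tested. The table held 27 of the 38 members. In its full windows, from 250 bases before to 50 after the start, 0 of 27 members held the ER stress element (CCAAT and CCACG with 9 bases between, both strands), which 0.171% of tested genes held. Likewise 0 of 27 held its type II form (ATTGG and CCACG with 1 base between), against 0.114%, and 0 held TGACGTGG, an element bound by XBP1 and ATF6, against 1.19%. CCACG alone, searched after these results, was in 14 of 27 members and in 54.4% of tested genes. These matches are descriptions of the letters in the windows, and their absence says nothing of binding by any factor.

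The secretory members were among the most abundant transcripts of these cells. Their mean over the 6 libraries was at least 1000 FPKM for 7 genes, 100 to 1000 for 16, 10 to 100 for 12 and under 10 for 2, and 21 of the 37 lay in the top 10% of tested genes. The highest were Sec11c (3791), Sec61b (3429), Ssr4 (3344), Ssr2 (2598) and Spcs1 (2227). All members together came to 22921, 24271 and 22971 FPKM in IgM libraries 1 to 3 and to 24339, 24749 and 24352 in IgG1 libraries 1 to 3. As a share of all FPKM in the library these sums were 3.06 ± 0.0681% in IgM and 2.78 ± 0.0981% in IgG1 cells (SD, n = 3). The shares of the groups did not overlap, with IgG1 lower. The sums themselves did not overlap either, but with IgG1 higher, so the direction depends on whether a sum or a share is taken. The FPKM of all genes added up to 730695 to 806599 in the IgM and 855123 to 914019 in the IgG1 libraries. In bulk RNA, fewer cells of a type and less RNA per cell cannot be told apart.

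**Figure D1:**
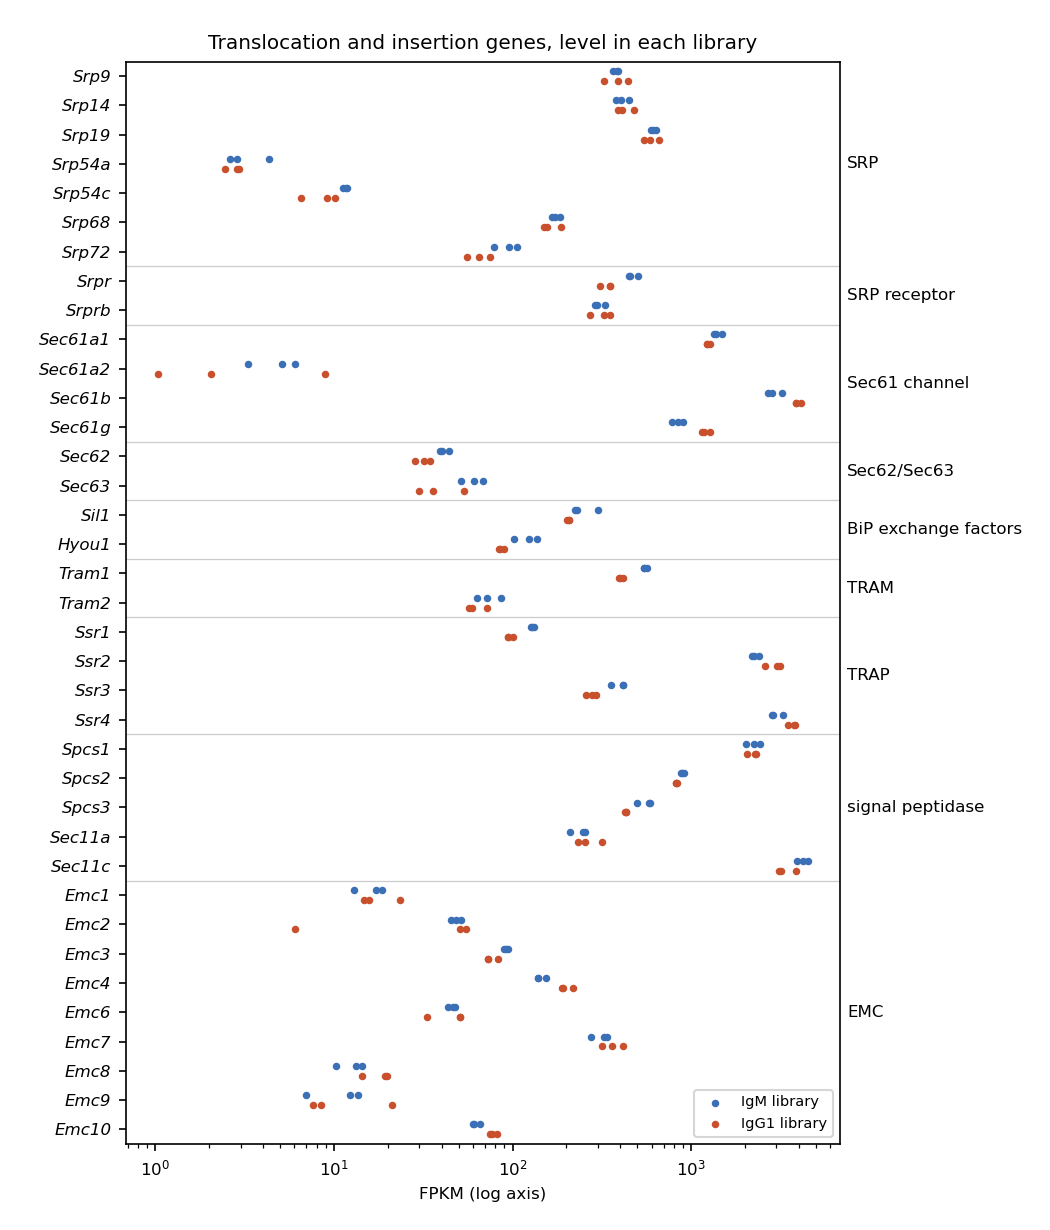
FPKM (log axis) of each of the 37 tested genes in the 3 IgM (blue) and 3 IgG1 (red) libraries, grouped by complex. Sec61b and Sec61g lie to the right in IgG1 and Tram1, Srpr and Ssr3 to the left, while Emc2 is at 6.05 in IgG1 library 3 and between 45.3 and 55.1 in the other libraries.

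IgG1 was compared with IgM by limma on log2(FPKM + 1) over all 9087 genes with Benjamini-Hochberg adjustment, and differences below are IgG1 minus IgM on that scale with limma's standard error (SE), which understates the change of low genes. Among the 37 members 3 were higher in IgG1 cells, Sec61g, Sec61b and Emc4, and 3 were lower, Ssr3, Srpr and Tram1. Over all genes tested 4.26% were higher and 1.76% lower. The median difference of the members was -0.11, with 14 above and 23 below 0, and the median of all genes was -0.05. The group means of the 6 calls differed by 1.36-fold to 1.42-fold. In 6 members all IgG1 libraries lay above all IgM libraries and in 14 all lay below, which is 16.2% and 37.8% of the members. Of all genes tested 13.7% and 13.5% were apart in these directions.

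The 6 calls depended on the scaling and on single libraries. After quantile normalization 0 members were higher and 10 lower, where 2.07% of all genes were higher and 2.2% lower. When Jchain was set aside and all libraries were brought to an equal FPKM sum, 0 were higher and 11 lower, against 1.95% and 4.32% of all genes. After median centring 4 were higher and 1 lower, against 5.38% and 1.3%. The rescaling without Jchain put the all-gene median at -0.25 in place of -0.05. Rescaling moves all genes of a library by nearly the same amount, so differences relative to that median could hardly change. They were 0.46 to 0.53 for Sec61b, Sec61g and Emc4 and -0.49 to -0.43 for Ssr3, Srpr and Tram1, which adds no support. Relative to the all-gene median after quantile normalization, the higher calls were smaller, at 0.17 for Sec61b, 0.14 for Sec61g and 0.29 for Emc4, against 0.49, 0.56 and 0.52 with FPKM as deposited. The lower calls were larger there, at -0.73 for Srpr, -0.70 for Tram1 and -0.73 for Ssr3. With IgM library 1, IgM library 3 or IgG1 library 2 left out, 0 of the 37 passed in limma, and without IgG1 library 3 Sec61g alone did. Calls fell over all 9087 genes too, from 387 higher and 160 lower with all libraries. In these fits, in the same order, they were 78 and 30, 185 and 45, 110 and 64, and 121 and 79.

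**Figure D2:**
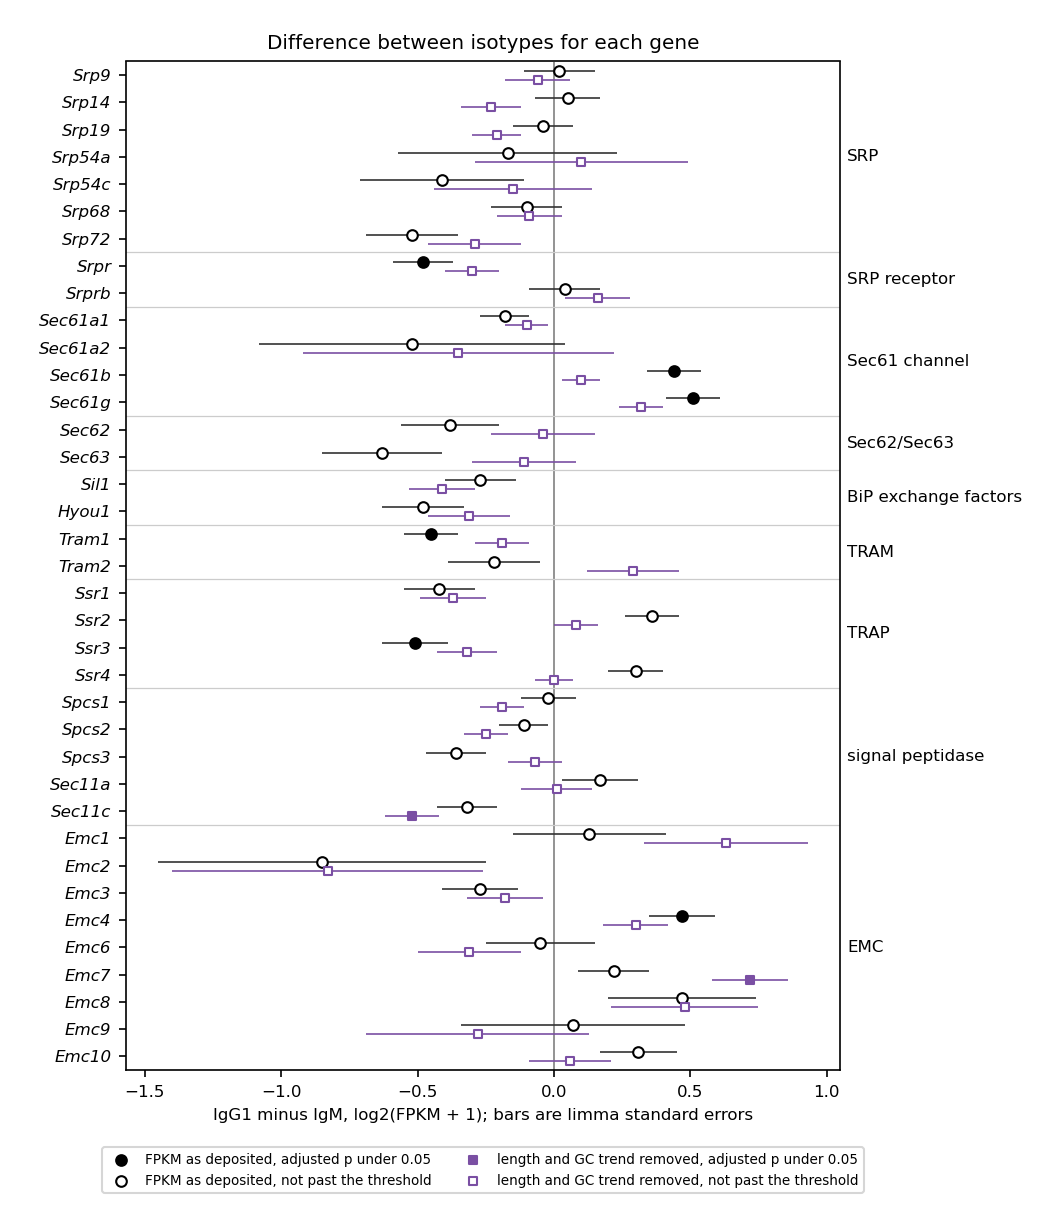
IgG1 minus IgM difference in log2(FPKM + 1) with limma's SE for each gene, from the FPKM as deposited (circles) and after each library's trend with transcript length and GC content was removed (squares), where filled symbols passed adjusted p under 0.05. Filled circles mark the 6 calls and filled squares mark Sec11c (-0.52) and Emc7 (0.72).

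SRP is a ribonucleoprotein whose Srp54 subunit binds the signal peptide, whose Srp9 and Srp14 pair pauses elongation, and whose Srp68, Srp72 and Srp19 build on its RNA. Of its 7 tested genes 0 passed the limma threshold, and at an unadjusted p under 0.05 there were 0 higher and 1 lower, where 11.9% of all genes tested were higher and 10.2% lower at that p. Srp19, the most abundant, was at 632, 609.6 and 593 FPKM in IgM libraries 1 to 3 and at 547, 659 and 586 in IgG1 libraries 1 to 3. These values overlapped, and the difference was -0.04 (SE 0.11, adjusted p = 0.871). Srp9 and Srp14 act as a heterodimer, and their levels overlapped over the 6 libraries at 327 to 443 and 379 to 481, with 1.08 ± 0.0592 FPKM of Srp14 per FPKM of Srp9 in IgM and 1.11 ± 0.166 in IgG1 cells (n = 3).

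Below them in level came Srp68 at 149 to 187 FPKM and Srp72 at 55.4 to 106. Srp72 lay lower in all IgG1 libraries, at 64.7, 74.6 and 55.4 against 96.1, 106 and 79.0 in IgM, with a difference of -0.52 (SE 0.17) that missed the threshold (adjusted p = 0.0937). The partner it binds, Srp68, differed by -0.10 (SE 0.13), and its groups overlapped. The signal-binding subunit was listed under 3 near-identical neighbouring genes on chromosome 12. Srp54c was at 6.52 to 11.8, Srp54a at 2.44 to 4.32 and Srp54b at or near 0. How reads shared by these copies were divided is not given in the sources used here, so their levels are uncertain and their sum lies far below that of the other SRP proteins.

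The SRP receptor has a peripheral GTPase subunit, encoded by Srpr, and a membrane-anchored GTPase subunit, encoded by Srprb. Srpr was lower in IgG1 cells, at 349.6, 351 and 308 FPKM in libraries 1 to 3 against 454, 503 and 448 in IgM. All IgG1 libraries lay below all IgM libraries, a 1.39-fold difference of means (log2 difference -0.48, SE 0.11, limma adjusted p = 0.0274). Srprb did not follow it, at 326, 272 and 349 against 296, 330.3 and 288 (0.04, SE 0.13, adjusted p = 0.875). Within each library Srpr was at 1.54 ± 0.0169 times the level of Srprb in IgM and 1.08 ± 0.206 times in IgG1 cells (SD, n = 3), with no overlap. Exons of Srpr overlap those of Fam118b on the other strand, which was at 21.2 FPKM in IgM and 12.6 in IgG1. The basic GENCODE vM21 transcript of Srpr, whose promoter is shown above, runs from 35211155 to 35217014 on chromosome 9 in GRCm38. Other annotated transcripts extend the gene to 35200175 and 35247973. Srpr is annotated as protein-coding, as are the other members.

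The Sec61 channel is a heterotrimer of a pore subunit, encoded by Sec61a1 or its paralogue Sec61a2, and the small single-spanning subunits Sec61b and Sec61g. Both small subunits were higher in IgG1 cells. Sec61g was at 1272, 1155 and 1173 FPKM in IgG1 libraries 1 to 3 against 786, 895 and 847 in IgM, 1.42-fold higher (0.51, SE 0.10, adjusted p = 0.0134). Sec61b was at 3868, 4117 and 3856 against 2691, 3226 and 2818, 1.36-fold higher (0.44, SE 0.10, adjusted p = 0.0248). For both genes every IgG1 library lay above every IgM library.

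The pore subunit gene Sec61a1 lay on the other side, at 1225, 1226 and 1274 FPKM in IgG1 against 1371, 1494 and 1349.9 in IgM, without passing the threshold (-0.18, SE 0.09, adjusted p = 0.296). Its paralogue Sec61a2 was at 1.04 to 8.93 FPKM, so Sec61a1 made up 99.3% to 99.9% of the pore transcripts. Exons of Sec61a2 overlap Nudt5 on the other strand, at 76.7 FPKM in IgM and 124 in IgG1, and its level is uncertain. Sec61b stood at 2.07 ± 0.0992 times the level of Sec61a1 in IgM and 3.18 ± 0.167 times in IgG1 cells, and Sec61g at 0.6 ± 0.027 and 0.967 ± 0.0626 times (SD, n = 3). A ratio of genes within a library is not moved by rescaling that library, and neither ratio overlapped between the groups. A trend with transcript length can move such a ratio, and Sec61b and Sec61g have transcripts of 564 and 754 nt against 3172 nt for Sec61a1. After the length and GC correction described below, Sec61b was at 0.10, Sec61g at 0.32 and Sec61a1 at -0.10. In order of level the channel ran Sec61b, Sec61a1, Sec61g and Sec61a2, with the ranges of Sec61a1 and Sec61g overlapping over the 6 libraries. Sec61b lies on chromosome 4 from 47474658 to 47483242 and Sec61g on chromosome 11 from 16500530 to 16508484.

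**Figure D3:**
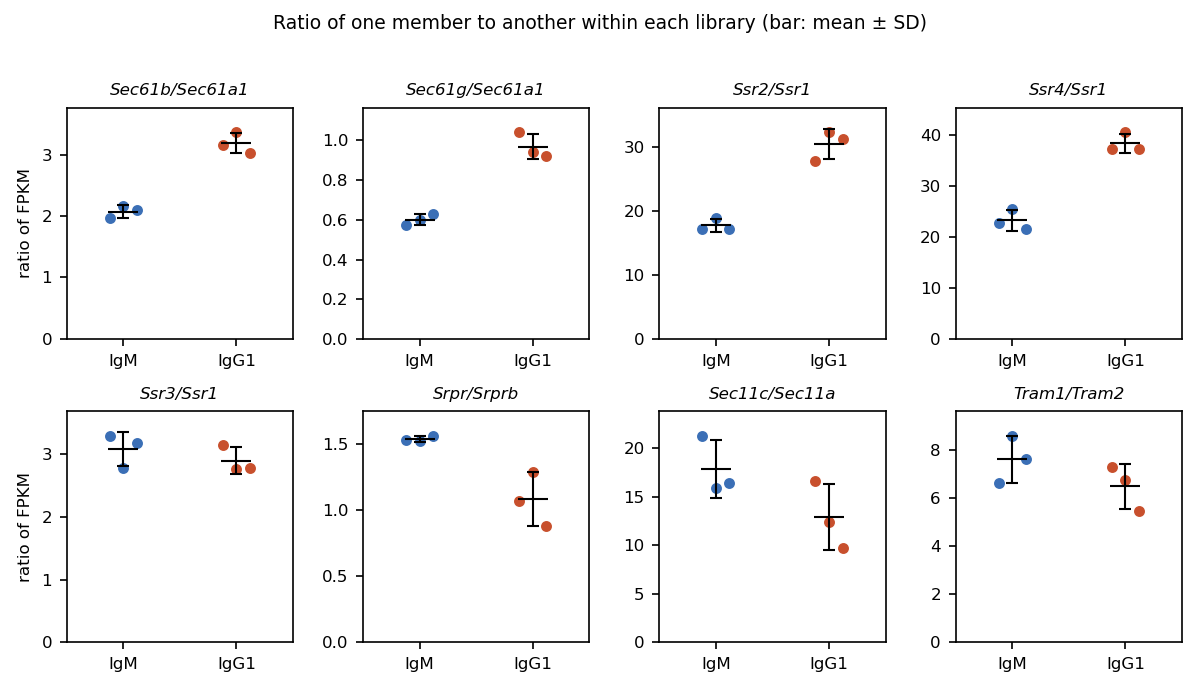
FPKM of a member divided by that of another in the same library, for 8 pairs, with points for libraries and bars for the mean ± SD of 3. The ratios Sec61b/Sec61a1, Sec61g/Sec61a1, Ssr2/Ssr1 and Ssr4/Ssr1 are higher in all IgG1 libraries and Srpr/Srprb is lower in all, while Ssr3/Ssr1, Sec11c/Sec11a and Tram1/Tram2 overlap.

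Sec62 and Sec63 are membrane partners of the channel that serve short or weakly targeted precursors, and the J domain of Sec63 recruits the chaperone BiP. Neither passed the limma threshold, and 1 was lower at an unadjusted p under 0.05 (10.2% of all genes). Sec63 was at 53.2, 35.7 and 29.8 FPKM in IgG1 libraries 1 to 3 and at 60.9, 51.6 and 68.7 in IgM (-0.63, SE 0.22, adjusted p = 0.12), with IgG1 library 1 inside the IgM range. Sec62 was at 28.3 to 34.5 against 39.4 to 44.2, apart in all libraries (-0.38, SE 0.18). Both were low beside the channel they join, and their ranges overlapped each other.

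Sil1 and Hyou1 release ADP from BiP so that it can bind the incoming chain again. Sil1 was at 206, 206 and 203 FPKM in IgG1 libraries and at 223, 299 and 229 in IgM (-0.27, SE 0.13, adjusted p = 0.264). Hyou1 was at 83.6 to 89.3 against 102 to 137 (-0.48, SE 0.15, adjusted p = 0.0802). For both genes all IgG1 libraries lay below all IgM libraries, and neither difference passed the threshold.

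TRAM proteins sit beside the channel and help certain signal sequences to insert. Tram1 was lower in IgG1 cells, at 416, 400.0 and 393 FPKM against 565, 544 and 545 in IgM libraries 1 to 3. The groups were far apart for their spread, with a 1.37-fold difference of means (-0.45, SE 0.10, adjusted p = 0.0223). Tram2, known for its part in collagen synthesis, was at 57.3 to 72.2 against 63.6 to 85.6 and overlapped (-0.22, SE 0.17, adjusted p = 0.499). Tram1 made up 84.5% to 89.5% of the pair. It lies on chromosome 1 from 13564698 to 13589910.

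TRAP is a complex of 4 subunits, encoded by Ssr1 to Ssr4, that contacts the channel and the nascent chain. Of the 4, Ssr3 passed the threshold. It was lower in IgG1 cells, at 294, 259 and 280.0 FPKM against 416, 355 and 417 in IgM (-0.51, SE 0.12, adjusted p = 0.0261). Ssr1 lay lower in every IgG1 library too, at 93.7, 94.0 and 101 against 127, 128 and 131, but missed the threshold (-0.42, SE 0.13, adjusted p = 0.0784).

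The other subunits of the complex lay above. Ssr2 was at 2603, 3023 and 3145 FPKM in IgG1 against 2182, 2396 and 2239 in IgM (0.36, SE 0.10, adjusted p = 0.0598), and Ssr4 at 3500.5, 3814 and 3763 against 2876, 3269 and 2841 (0.30, SE 0.10, adjusted p = 0.0864). For each gene all IgG1 libraries exceeded all IgM libraries, without passing the threshold. Relative to Ssr1, Ssr2 was at 17.7 ± 0.925 in IgM and 30.4 ± 2.29 in IgG1, and Ssr4 at 23.3 ± 2.03 and 38.4 ± 1.88 (SD, n = 3). The ratio of Ssr3 to Ssr1 overlapped, at 3.08 ± 0.267 and 2.89 ± 0.217. The subunits that lay higher have median transcripts of 840 and 782 nt and those that lay lower 1825 and 2213 nt. Ssr3 lies on chromosome 3 from 65379655 to 65392623.

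The signal peptidase holds a catalytic subunit, encoded by Sec11a or Sec11c, and the accessory subunits Spcs1, Spcs2 and Spcs3. Of the 5 genes 0 passed the limma threshold with FPKM as deposited and 2 were lower at an unadjusted p under 0.05, against 10.2% of all genes. Of the 5 differences 4 were negative, as were 53.7% of those of all genes. Sec11c, the most abundant of all members, was at 3869.5, 3178 and 3089 FPKM in IgG1 libraries 1 to 3 and 4484, 3920.5 and 4203 in IgM, apart in all libraries (-0.32, SE 0.11, adjusted p = 0.109). Its paralogue Sec11a was at 233, 256 and 316 against 211, 247 and 256 and overlapped (0.17, SE 0.14, adjusted p = 0.534). Sec11c made up 90.7% to 95.5% of the catalytic transcripts, at 17.9 ± 2.98 times Sec11a in IgM and 12.9 ± 3.45 times in IgG1, which overlapped.

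Among the accessory subunits Spcs3 was at 426 to 434 FPKM in IgG1 and 500.1 to 589 in IgM (-0.36, SE 0.11, adjusted p = 0.0693). Spcs2 was at 821 to 838 against 876 to 910.3, apart but by little (-0.11, SE 0.09), and Spcs1 overlapped at 2063 to 2309 against 2038 to 2432. The order of level, Sec11c, Spcs1, Spcs2, Spcs3 and Sec11a, held without overlap between neighbours over all 6 libraries. Summed, the complex was at 8131 ± 105 FPKM in IgM and 7119 ± 270.0 in IgG1 (SD, n = 3), whereas the Sec61 channel was at 5164 ± 402 and 6392 ± 96.3 and TRAP at 5792 ± 309 and 6991 ± 435. These sums are led by Sec11c, Sec61b, Ssr2 and Ssr4. They are not shares of the library, and the FPKM of all genes also added up to more in the IgG1 libraries.

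In the EMC, Emc3 and Emc6 form the membrane-inserting core, Emc2, Emc8 and Emc9 the cytosolic cap, and Emc1, Emc7 and Emc10 the luminal part. Emc4, a membrane subunit, was the call of this complex. It was at 219, 189 and 192 FPKM in IgG1 against 138, 154 and 138 in IgM, 1.39-fold higher with no overlap (0.47, SE 0.12, adjusted p = 0.0458). The call of Emc4 was lost whichever of the 6 libraries was left out (adjusted p = 0.0642 to 0.196). Emc4 lies on chromosome 2 from 112363011 to 112368027.

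The most abundant EMC gene, Emc7, was at 361, 417 and 317 FPKM in IgG1 and 274, 337 and 327 in IgM and overlapped (0.22, SE 0.13, adjusted p = 0.367). Emc10 lay above in all IgG1 libraries, at 75.2 to 81.4 against 60.3 to 66.0 (0.31, SE 0.14, adjusted p = 0.232), and Emc3 below, at 72.4 to 83.0 against 89.3 to 93.9 (-0.27, SE 0.14). Emc2 was at 50.8 and 55.1 in IgG1 libraries 1 and 2 and at 6.05 in library 3, against 45.3 to 51.2 in IgM. Its difference of -0.85 (SE 0.60, adjusted p = 0.451) rested on that library, and was 0.13 without it.

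The alternative cap subunits Emc8 and Emc9 were both low. Emc8 was at 14.3, 19.9 and 19.2 FPKM in IgG1 against 10.3, 14.4 and 13.2 in IgM (0.47, SE 0.27, adjusted p = 0.349), and Emc9 at 7.59, 21.2 and 8.51 against 12.3, 13.7 and 6.94 (0.07, SE 0.41, adjusted p = 0.937). Emc8 made up 45.4% to 69.3% of the pair, so neither dominated. Exons of Emc9 overlap Psme1 on the other strand, which stood at 248 and 333 FPKM, so its level is uncertain. Emc1 ranged from 12.9 to 23.3 and Emc6 from 33.3 to 51.0 over the 6 libraries, and both overlapped between groups. Mmgt1, which encodes the remaining membrane subunit EMC5 and was kept in a separate list, was at 7.85, 4.21 and 1.75 against 8.49, 10.4 and 8.19 (-0.99, SE 0.44, adjusted p = 0.215).

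Differences among the members followed transcript length, as they did over all genes. Across the 37 members Spearman rho of the difference with length was -0.44, and across 8765 tested genes with a known length it was -0.36. After the length and GC correction described below, rho among the members was 0.22, of the opposite sign. These are descriptions over genes of the same libraries, with no test. The 13 members under 1000 nt had a median difference of 0.07 with 8 above 0, where the 945 tested genes of that length had a median of 0.33 and 77.1% above 0. The 9 members of 1000 to 2500 nt had a median of -0.27 and 2 above 0, against 0.05 and 54.4% for 3457 genes. The 15 longer ones had a median of -0.36 and 4 above 0, against -0.21 and 33.2% for 4362 genes. Members of each length class thus had a lower median than the tested genes of that class.

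**Figure D4:**
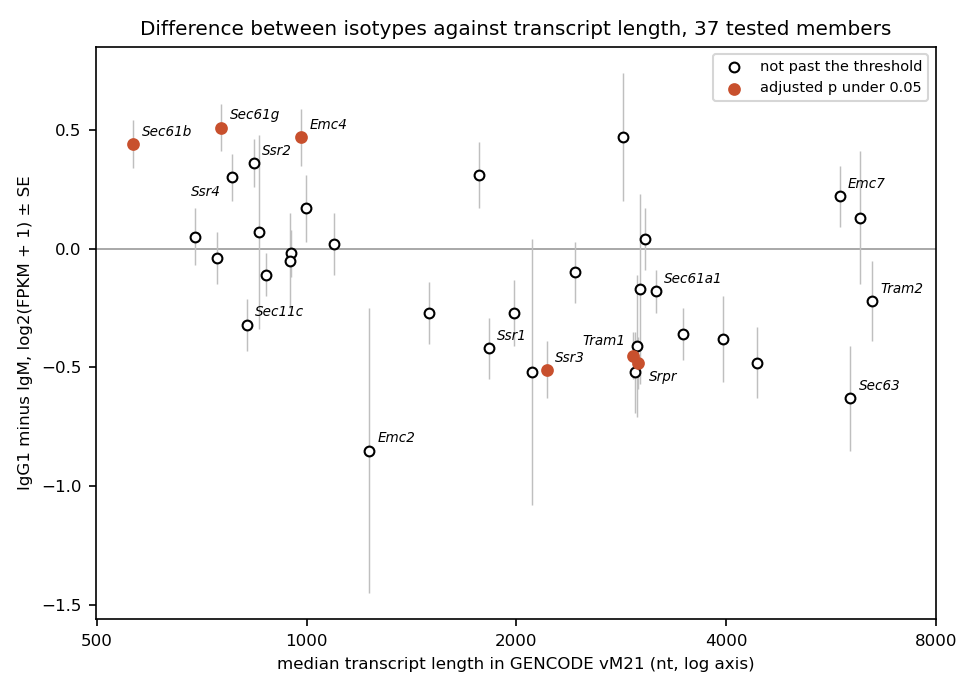
IgG1 minus IgM difference in log2(FPKM + 1), with limma's SE, of the 37 members against median transcript length (log axis), with the 6 calls filled. The higher calls Sec61b, Sec61g and Emc4 have transcripts of 564 to 983 nt and the lower calls Ssr3, Srpr and Tram1 of 2213 to 2993 nt, while Sec11c (821 nt, -0.32) and Emc7 (5826 nt, 0.22) lie apart from that order.

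With the trend of each library with length and GC content over all genes removed, 0 of the 6 calls passed. Sec61g stood at 0.32 (SE 0.08, adjusted p = 0.0702), Sec61b at 0.10 (adjusted p = 0.527), Emc4 at 0.30 (0.201), Ssr3 at -0.32 (0.162), Srpr at -0.30 (0.134) and Tram1 at -0.19 (0.356). Sec61a1 was then at -0.10, so the distance of Sec61b from it was smaller than before, as was that of Ssr4 (0.00) and Ssr2 (0.08) from Ssr1 (-0.37). Other members passed in their place, Sec11c as the lower call (-0.52, SE 0.10, adjusted p = 0.0207) and Emc7 as the higher call (0.72, SE 0.14, adjusted p = 0.0245). Over all 8765 genes 1.89% were then higher and 0.947% lower. GENCODE vM21 lists 1 Emc7 transcript in its basic set, of 5826 nt with a coding length of 723 nt, and the gene model behind the deposited FPKM may differ. Using coding length instead, an alternative chosen after seeing the data, Emc7 was at 0.36 (adjusted p = 0.128) and Sec11c at -0.37 (adjusted p = 0.0498).

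Genes that work beside the translocon were described from 4 lists. Of 7 tested genes that insert tail-anchored proteins 0 passed in either direction, with a median difference of 0.37, and at an unadjusted limma p under 0.05, 3 were higher and 0 lower, against 11.9% and 10.2% of all genes. Get4, the most abundant, was at 113, 131 and 121 FPKM in IgG1 against 78.5, 91.3 and 112 in IgM (0.38, SE 0.16, adjusted p = 0.181). For 8 genes of the multipass translocon and related insertion factors the median was 0.27. Of these, 1 was lower and 0 higher, against 1.76% and 4.26% of all genes. That gene was Ccdc47, a subunit of the chaperone for multipass membrane proteins, at 44.7, 38.8 and 31.7 against 76.0, 60.5 and 67.6 (-0.82, SE 0.18, adjusted p = 0.0252). It missed the threshold without IgM library 1 or 3 or IgG1 library 2 or 3 (largest adjusted p = 0.148) and after the length and GC correction (-0.56, adjusted p = 0.0885). Ccdc47 also missed it with no filter (0.102) and with no intensity trend (0.155).

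The oligosaccharyltransferase attaches N-glycans as chains pass the channel. Of its 12 genes 2 were higher and 2 lower, against 4.26% and 1.76% of all genes, with a median of -0.03. The catalytic subunits Stt3b (95.1, 91.0 and 113 FPKM in IgG1 against 185, 182 and 208 in IgM, adjusted p = 0.00474) and Stt3a (811, 577 and 559.8 against 965, 955 and 1005, adjusted p = 0.0252) were lower. The small subunits Ost4 (0.46, adjusted p = 0.0329) and Tmem258 (0.40, adjusted p = 0.0443) were higher, and exons of Tmem258 overlap Fen1 on the other strand, at 209 and 226 FPKM. Of these 4, Stt3b kept its call whichever library was left out (largest adjusted p = 0.0296) and after the length and GC correction (-0.67, adjusted p = 0.029), though not with no filter (0.0635) or no intensity trend (0.125). The lower subunits have transcripts of 4221 and 3076 nt and the higher ones of 860 and 526 nt.

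Of 9 ribosome-side, sheet-forming, luminal and intramembrane protease genes 1 was higher and 1 lower, against 4.26% and 1.76% of all genes, with a median of -0.35. Ckap4 encodes CLIMP-63, a membrane protein of ER sheets. It was at 176, 261 and 313 FPKM in IgG1 libraries 1 to 3 against 58.0, 53.2 and 113 in IgM, 3.35-fold higher with no overlap (1.77, SE 0.27, adjusted p = 0.00522). Its call held whichever library was left out (largest adjusted p = 0.0344), after the length and GC correction (1.78, adjusted p = 0.00671) and under each scaling tried, but not with no filter (0.107) or no intensity trend (0.128). Rrbp1, the other sheet-associated protein of the list, was at 48.2 to 71.4 against 68.1 to 85.9 (-0.35, SE 0.18, adjusted p = 0.285). The lower gene was the BiP co-chaperone Dnajb11, at 818, 768 and 734 against 1163, 1043 and 1095 (-0.51, SE 0.10, adjusted p = 0.0134), and it passed after the length and GC correction too (-0.46, adjusted p = 0.0181). It missed the threshold without IgM library 1 or 3 or IgG1 library 2 or 3 (largest adjusted p = 0.0742). Dnajb11 also missed it with no filter (0.0732) and with no intensity trend (0.2).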

How the data were processed

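RNA of 6 libraries was measured, 3 per isotype. Per the labels' protocols, column-purified total RNA was turned into full-length cDNA with the SMART-Seq HT kit and tagmented with Nextera XT. The deposited values are FPKM per gene symbol, made by the authors with Cufflinks 2.2.1, Cuffdiff, Bowtie2 2.3.5.1 and TopHat2 2.1.1 on mm10, per the submitters' processing notes. Not given in the sources used here are the annotation, the scaling between libraries and the use of strand. FPKM divides by length and depth, so uneven coverage of long transcripts or an altered composition moves it. Read counts were not used. The depth is not stated. A rough figure from the lowest FPKM is 14.9 to 17.4 M fragments per library.

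Genes with FPKM of at least 1 in at least 3 libraries were compared on log2(FPKM + 1) with limma 3.58.1 in R 4.3.3 (eBayes with an intensity trend), with Benjamini-Hochberg adjustment over all 9087 genes and a threshold of 0.05. A correction removed, in each library, a loess trend (span 0.5) of deviations from gene means with transcript length and GC content from GENCODE vM21, known for 96.5% of tested genes. On simulated data for IgG1 against IgM over 9087 genes with 50 changed genes per size, 10% were recovered at a log2 change of 0.5, 64% at 1, 96% at 2 and 100% at 3, with 8 false among 143 calls.

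The members, lists and tests were chosen with earlier results of these data known. Values per library are given for members past the threshold in either fit, the highest of each complex and the paralogue pairs, and for up to 3 called genes of each neighbouring list, or its highest where none was called. Srp72, Srprb, Ssr1, Ssr2, Emc2, Mmgt1, Rrbp1 and Tmem258 were named outside that rule with their values already seen, as were the ratios other than those of paralogues (13 ratios were computed, with no test). Alternatives were pseudocounts of 0.1 and 5, no filter or one at FPKM 5, other scalings, other moderation, array weights, a replicate block, the length and GC correction and leaving out each library. Results on 2 genes that are not members are not reported here.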

Additional observations from a re-analysis of the deposited data

How the results depend on the processing

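The counts of 3 members higher and 3 lower in IgG1 cells became 0 and 0 with no filter on low values and 0 and 0 with no intensity trend, where limma called 2 and 4 of 14922 genes and 3 and 5 of 9087 in all. At an unadjusted p under 0.05 these settings had 6 higher and 11 lower members, and 3 higher and 7 lower. Of all genes, 1109 and 1080 of 14922, and 819 and 906 of 9087, were higher and lower at that p. The counts were 0 and 10 with quantile normalization, 0 and 11 with rescaling without Jchain and 4 and 1 with median centring. Of all 9087 genes 188 and 200, 177 and 393, and 489 and 118 were called, in the same order. With the length and GC correction the counts of members were 1 and 1, against 166 and 83 of 8765 genes. With that by coding length, which was chosen after seeing the data, the counts of members were 0 and 1, against 200 and 86 of 8531. Leaving out each library in turn gave 0 to 3 higher and 0 to 5 lower, and 0 of the 6 calls passed in all 6 of these fits. Of all 9087 genes these fits called 78 to 394 higher and 30 to 251 lower. Pseudocounts, the stricter filter, robust moderation and array weights gave 2 to 4 higher and 3 lower. Of all genes (9087, or 6642 with the stricter filter) 302 to 457 were higher and 110 to 198 lower there. The 6 called genes kept their sign in all 20 alternatives, most of which could not have changed it. Another filter, other moderation or a replicate block leaves the difference itself unchanged. The groups of these 6 genes do not overlap, so leaving out a library cannot turn the sign. Rpn2 and Dad1 of the oligosaccharyltransferase, at 0.01 and 0.08, turned to -0.35 (limma adjusted p = 0.0293) and -0.32 (adjusted p = 0.0422) with quantile normalization. The cause of these shifts was not tested. In the simulation most changes of the size seen in the 6 calls were not recovered. Its changed genes were drawn at random from all but the lowest genes, so recovery at the levels of the members was not measured. A member that missed the threshold is not shown to be alike in both isotypes.

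Samples share only a replicate number: the correlations of same-numbered libraries' deviations were 0.10, -0.03 and -0.00. With the replicate block 2 members were higher and 3 lower, Emc4 missing at limma adjusted p = 0.0567, against 432 and 154 of all 9087 genes. With the block and the length and GC correction 2 were higher, Emc7 and, at limma adjusted p = 0.0427, Sec61g. Sec11c was lower (1 gene) there, and 300 and 112 of all 8765 genes were higher and lower.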
